A study of Mus musculus with 6 samples.

Results

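The 5 genes described here encode the machinery that attaches the ubiquitin-like protein ISG15 to other proteins and takes it off again, and their transcripts were measured in whole brain after a peripheral inflammatory challenge. Members were found by gene symbol: every transcript cluster whose platform annotation names Isg15, Uba7, Ube2l6, Herc6 or Usp18, alone or together with another gene, was taken. On this array all probes that read out the same transcribed locus are summarised as a transcript cluster. The rule gave 5 clusters, 1 for each gene, out of 35556 on the array, and 4 of them name their gene alone. The cluster that names Isg15 also names Gm9706, which the annotation lists as a pseudogene on another chromosome. Cluster identifiers on this array largely follow chromosome order. Of the 100 single-gene clusters with the nearest identifiers, 98 lie on chromosome 17, which holds Gm9706, and 0 on chromosome 4, which holds Isg15. For the other 4 members between 95 and 100 of these neighbours lie on the member's own chromosome. Whether the probes of the shared cluster read Isg15 transcripts was not tested, and its values are given below as those of the cluster, not of Isg15.

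Male C57BL6 mice aged 7 to 8 weeks received a single i.p. injection of LPS from Escherichia coli serotype 055:B5 at 4 mg/kg, or of PBS as vehicle, and were perfused with PBS before the brain was removed 48 hours later. There were 3 mice per group, all without a genetic modification in the labels, and each mouse gave 1 Mouse Gene 1.0 ST array. Values are log2 expression after robust multichip average (RMA) normalization by the authors. The comparison asks whether transcripts in the brain differ after inflammation that was started outside it, and all cell types of the brain contribute to 1 value, so that fewer cells of a type and less RNA per cell cannot be told apart.

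ISG15 is made in response to type I interferon and, like ubiquitin, ends up joined to lysines of target proteins. UBA7 is the E1 enzyme that activates it, UBE2L6 is the E2 enzyme that carries it, and HERC6 is the main E3 ligase that transfers it to targets in the mouse. USP18 is the protease that cuts it off again, and USP18 also binds the interferon receptor chain IFNAR2 and damps its signalling. Loss of Usp18 in the mouse is known for its severe effects in the brain, where the gene is used by microglia and other cells.

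Because these genes are known as interferon-induced, the sequence just before each start of transcription is of interest. Promoter windows of RefSeq (GRCm38.p6) covered Isg15, Uba7, Ube2l6 and Herc6, that is 4 of the 5 genes, and the 250 bases before the start were searched on both strands. The motif GAAANNGAAA is the core of the interferon-stimulated response element, found before many interferon-induced genes. The shorter motif AANNGAAA, bound by interferon regulatory factors, lies within every match of the longer one. TTCNNNGAA is the gamma-activated sequence, known from genes that respond to interferon gamma. Of all 32851 promoter windows, 2.98% held the first, 21.3% the second and 7.02% the third. Isg15 held 3 overlapping matches to the first motif, which together span bases 78 to 57 before the start. It held 4 matches to the second, which include those within the first. Uba7 held 1 match to the second motif, on the opposite strand, 27 to 20 bases before the start, and none to the first. Ube2l6 and Herc6 held none of the 3 motifs in these windows, and no member held the third. Among 23 measured genes of a general list of interferon-stimulated genes that have a window, 10 held the first motif. The windows of Isg15 (chr4:156200819-156201068, minus strand) and Uba7 (chr9:107975317-107975566, plus strand) are shown since they hold the matches. They run 5′ to 3′ to the base before the start, and capitals mark the matches to the first or second motif.
Isg15: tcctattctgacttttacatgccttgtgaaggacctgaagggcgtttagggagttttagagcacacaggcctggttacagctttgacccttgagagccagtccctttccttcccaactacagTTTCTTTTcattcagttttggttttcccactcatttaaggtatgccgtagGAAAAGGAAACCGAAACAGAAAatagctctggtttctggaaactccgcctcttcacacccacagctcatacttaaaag
Uba7: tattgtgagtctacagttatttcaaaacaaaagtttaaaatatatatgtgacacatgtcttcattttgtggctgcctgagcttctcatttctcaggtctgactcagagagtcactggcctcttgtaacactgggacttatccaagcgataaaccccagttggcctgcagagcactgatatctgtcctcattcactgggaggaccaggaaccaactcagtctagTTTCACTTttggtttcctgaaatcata

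Usp18, Herc6 and Uba7 were upregulated in the brains of LPS-treated mice, with fold changes of 3.75, 1.80 and 1.49. Ube2l6 was 1.47-fold higher on average without passing the test, and the cluster shared by Isg15 and Gm9706 did not pass. Thus 3 of the 5 clusters were higher by limma at an adjusted p under 0.05, where 0.652% of all clusters were, and none was lower, where 0.0619% of all clusters were. In 4 of the 5 clusters every LPS array was above every PBS array, a pattern seen in 9.73% of all clusters. With each array left out in turn, 1 to 4 of the 5 were called, and Usp18 was called each time. The number of arrays limits the precision, and the exact permutation test over 3 against 3 mice cannot give a two-sided p below 0.1.

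**Figure D1:**
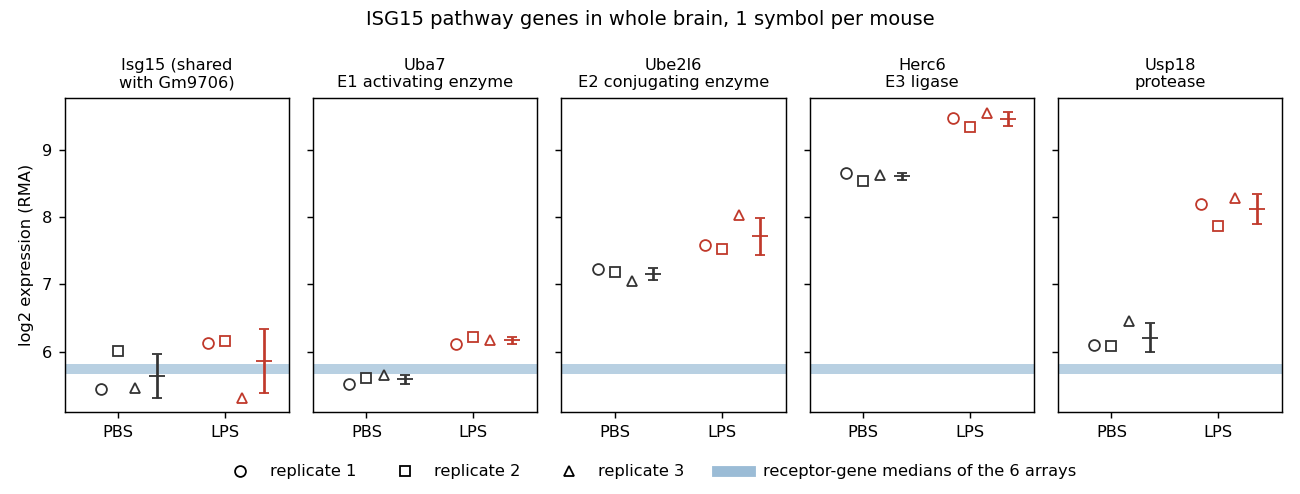
Log2 expression of the clusters of the 5 genes in each mouse, with replicates 1, 2 and 3 as circles, squares and triangles and the mean ± SD beside them. The band spans the array medians of olfactory and vomeronasal receptor genes, 5.67 to 5.81, and values are to be compared within a panel; Usp18, Herc6, Ube2l6 and Uba7 separate the groups, and the cluster shared by Isg15 and Gm9706 does not.

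To judge how far a level lies above no signal, the median of 1210 clusters that name olfactory or vomeronasal receptors, a class with little transcription in the brain, was taken on each array. These medians ran from 5.67 to 5.81 on the log2 scale.

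The cluster that names the modifier Isg15 (chromosome 4 from 156199424 to 156200818 of GRCm38.p6) together with Gm9706 (chromosome 17 from 46406981 to 46407624) had log2 expression of 5.44, 6.01 and 5.47 in PBS replicates 1, 2 and 3. After LPS the values were 6.13, 6.15 and 5.31. LPS replicate 3 was the lowest of the 6 arrays and PBS replicate 2 lay close to the other LPS arrays, so the groups overlapped. The difference was 0.23 (standard error 0.26, 95% confidence interval -0.40 to 0.85, adjusted p = 0.727 from limma). Only 3 of the 6 arrays were above their receptor-gene median, and 39.5% of the receptor clusters had a lower mean than this cluster in PBS mice. At this signal, and with the shared annotation, the values do not settle whether Isg15 transcripts changed.

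Uba7, the activating enzyme (chromosome 9 from 107975567 to 107984056), had values of 5.52, 5.61 and 5.65 after vehicle and 6.11, 6.22 and 6.18 after LPS. Its LPS replicates had an SD of 0.05 (n = 3), and the groups were separated by 0.47. The log2 fold change was 0.58 (standard error 0.08, 95% confidence interval 0.40 to 0.76, adjusted p = 0.0268 from limma). In PBS mice its mean lay 0.15 below the receptor-gene median, so this fold change depends on the background, and after LPS it lay 0.44 above. The call did not survive centring on array medians (limma, adjusted p = 0.113). Among the 6 fits that leave out an array it was kept in 1, the fit lacking LPS replicate 3, and the adjusted p reached 0.143 in the others.

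Ube2l6, the conjugating enzyme (chromosome 2 from 84798828 to 84810003), was measured at 7.23, 7.18 and 7.05 after vehicle and at 7.58, 7.52 and 8.03 after LPS. All LPS arrays were higher than all PBS arrays, by at least 0.29, and LPS replicate 3 stood well above the other LPS arrays. The log2 fold change was 0.56 (standard error 0.15, 95% confidence interval 0.21 to 0.91), close to that of Uba7, but the spread of the LPS mice was larger and the test was not passed (adjusted p = 0.198 from limma). Without LPS replicate 3 the difference was smaller, at 0.40, and passed (adjusted p = 0.0417 from limma).

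Herc6, the ligase (chromosome 6 from 57580992 to 57665136), lay 2.87 above the receptor-gene median in PBS mice. Its values were 8.65, 8.54 and 8.62 after vehicle and 9.47, 9.34 and 9.55 after LPS, so the groups were separated by 0.69. The log2 fold change was 0.85 (standard error 0.08, 95% confidence interval 0.65 to 1.05, adjusted p = 0.00923 from limma). Dropping any of the PBS replicates, or LPS replicate 1, removed the call (limma, adjusted p up to 0.0693), while the difference itself stayed between 0.80 and 0.91.

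Usp18, the protease (chromosome 6 from 121245906 to 121270917), had the largest increase of the 5 genes and ranked 15 among all 35556 clusters by log2 fold change. It was measured at 6.10, 6.08 and 6.45 after vehicle and at 8.19, 7.87 and 8.29 after LPS. The lowest LPS array was 1.42 above the highest PBS array. The log2 fold change was 1.91 (standard error 0.15, 95% confidence interval 1.56 to 2.26, adjusted p = 0.00405 from limma). In PBS mice its mean was 0.47 above the receptor-gene median and 86.9% of receptor clusters were lower, so the size of this fold change may depend on the background. With 32 added to each value on the linear scale, which shrinks changes of dim genes, the log2 fold change was 1.55. Usp18 was called with each of the 6 arrays left out in turn (adjusted p from 0.00449 to 0.0378 from limma), but not by the methods' t-test (adjusted p = 0.104).

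**Figure D2:**
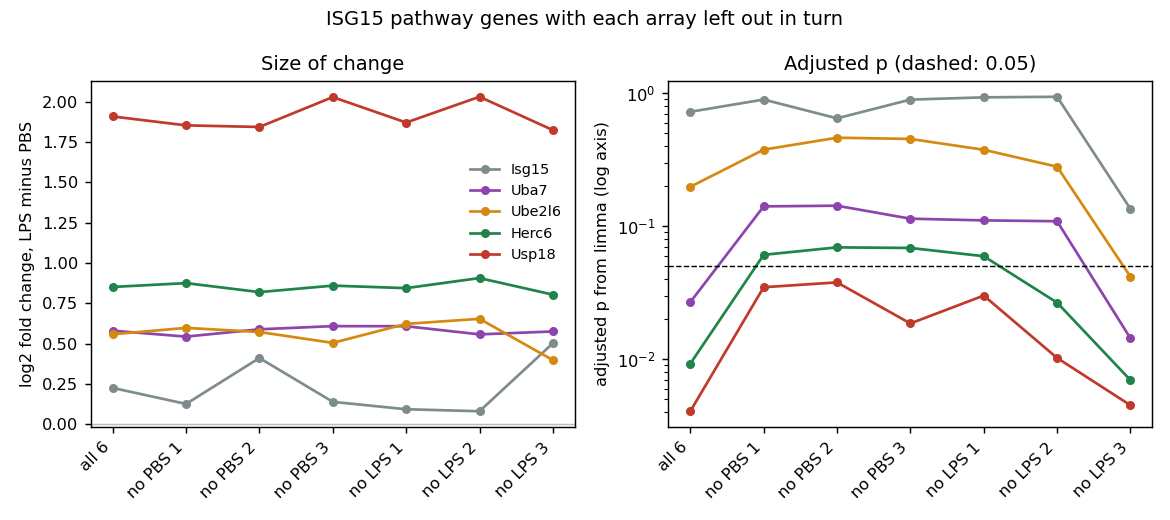
Log2 fold change (left) and adjusted p from limma on a log axis (right) of the 5 genes, with all 6 arrays and with each array left out in turn; the dashed line is at 0.05. Usp18 stays between 1.82 and 2.03 and below the line in all fits, and Herc6 between 0.80 and 0.91. The line of Isg15 is the cluster shared with Gm9706, which stays between 0.08 and 0.50.

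In order of log2 fold change the clusters ran from Usp18 over Herc6, Uba7 and Ube2l6 to the one shared by Isg15 and Gm9706. The last and Uba7 lay below the receptor-gene median in PBS mice, where a log2 fold change can be compressed, so their places are those of the measured values only. Neighbours were compared through the difference between the 2 genes in each mouse, by an exact permutation test over 4 pairs. The measured increase of Usp18 exceeded that of Herc6 by 1.06 (standard error 0.13), with all 3 LPS mice above all 3 PBS mice in this difference. That gives the smallest exact two-sided p that 3 against 3 mice allow (p = 0.1, and 0.4 after Benjamini-Hochberg adjustment). The test therefore cannot settle their order. Herc6 and Uba7 differed by 0.27 (standard error 0.10), Uba7 and Ube2l6 by 0.02 (standard error 0.19), and Ube2l6 and the shared cluster by 0.33 (standard error 0.47). In these last 3 pairs the differences of the LPS and PBS mice overlapped (exact p = 0.2, 1.0 and 0.7), so that no order among these 4 clusters is settled. The adjusted exact p of Herc6 and Uba7 was also 0.4, and the pairs were formed from the same log2 fold changes.

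The LPS arrays were not alike. A principal component analysis placed LPS replicates 1 and 2 away from the remaining 4 arrays along its first axis (54.5% of the variance), and their medians over all clusters were 7.09 and 7.11 against 6.95 to 6.98 on the others. A small spread among the LPS arrays helps a gene to pass the test. Closeness along that division in the members that passed is therefore partly a matter of their selection. LPS replicate 3 was above the mean of LPS replicates 1 and 2 by 0.01 for Uba7, 0.14 for Herc6 and 0.25 for Usp18. It was above them by 0.48 for Ube2l6 and below them by 0.83 on the log2 scale for the cluster shared by Isg15 and Gm9706, where the LPS group therefore holds values on both sides of the PBS mean. With LPS replicates 1 and 2 both left out, the 1 LPS array left being assumed to vary like the PBS arrays, the difference was 2.08 for Usp18 (adjusted p = 0.0407 from limma), 0.95 for Herc6 (adjusted p = 0.0701), 0.88 for Ube2l6 (adjusted p = 0.104), 0.59 for Uba7 (adjusted p = 0.191) and -0.33 for the shared cluster (adjusted p = 0.703). The part of this division in the results was not tested.

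Each member belongs to a larger family that serves ubiquitin or other ubiquitin-like proteins, and none of these relatives passed the test. Over all 19938 genes named alone, 0.848% were higher, 0.0351% were lower and the median log2 fold change was -0.02. At an unadjusted p under 0.05, the measure of the counts that follow, 6.24% of these genes were higher and 7.24% lower. Among 14 measured modifiers, such as Nedd8, Sumo2 and Ufm1, log2 fold changes ran from -0.44 to 0.01 with a median of -0.17, and limma called none, with none higher and 3 lower at an unadjusted p under 0.05. These 3 were Urm1, Nedd8 and Ubl5, at -0.34, -0.44 and -0.30 on the log2 scale (limma, adjusted p = 0.218, 0.233 and 0.295). Of 6 measured E1 enzymes or their subunits limma called none, and only Uba6, an E1 for ubiquitin, was higher at an unadjusted p under 0.05, with a difference of 0.26 on the log2 scale (95% confidence interval 0.08 to 0.44, adjusted p = 0.236 from limma). Nae1, Uba3, Atg7, Sae1 and Mocs3, which activate other modifiers, had values from -0.16 to 0.13.

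The 31 other measured E2 enzymes had a median log2 fold change of -0.03, and limma called none, with 1 higher and 3 lower at an unadjusted p under 0.05. Ube2g2, an E2 of the endoplasmic reticulum, had the lowest value, -0.65 (adjusted p = 0.117 from limma). Among the HERC ligases, Herc1, Herc2, Herc3 and Herc4 had log2 fold changes of 0.08, 0.10, -0.06 and -0.03, and limma called none of the 4, also at an unadjusted p under 0.05. Their 95% confidence intervals ended at 0.30 or lower, below the interval of Herc6. Of 48 other ubiquitin-specific proteases limma called none, with 2 higher and 1 lower at an unadjusted p under 0.05 and a median of 0.00. The largest log2 fold change among them was 0.42, for Usp40 (adjusted p = 0.311 from limma), against 1.91 for Usp18. The methods' t-test, as run here on the deposited values, called no gene of these 5 families either, nor any of the 5 members. Usp18, Herc6 and Ube2l6 each had a larger log2 fold change than every measured gene of their families. Without LPS replicate 3, where 3.4% of all genes named alone were higher and 3.49% lower, 2 modifiers, 2 E2 enzymes and 2 proteases were lower, and 1 E1 enzyme and 2 proteases were higher.

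**Figure D3:**
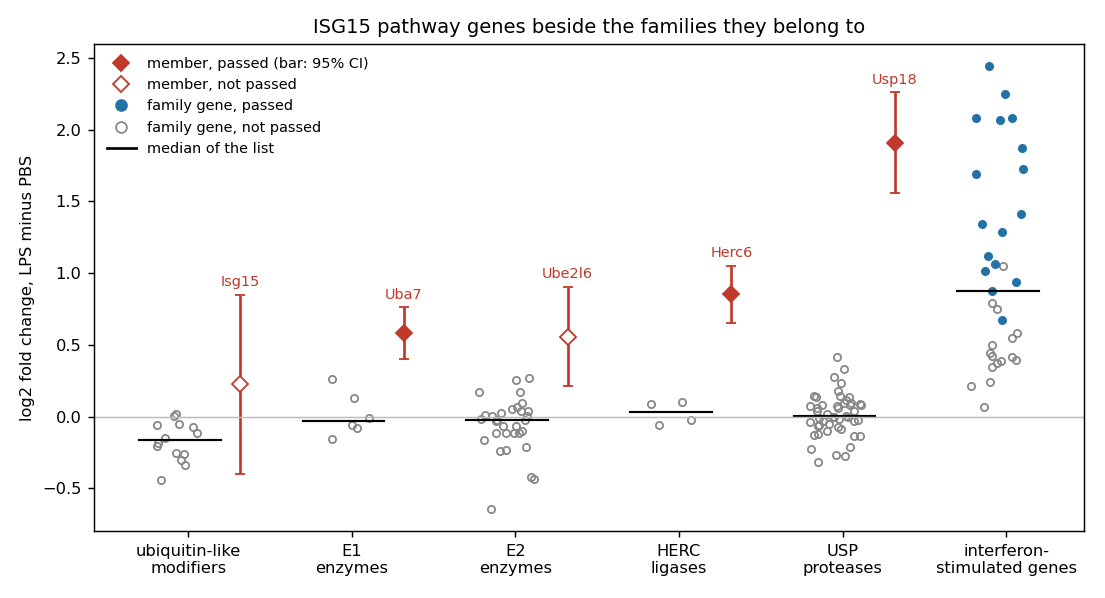
Log2 fold change (LPS minus PBS) of each member as a diamond with its 95% confidence interval, beside the measured genes of its family as circles, with the interferon-stimulated genes at the right. Filled symbols passed the limma test; the diamond of Isg15 is the cluster shared with Gm9706. No family gene passed, while 17 of 33 interferon-stimulated genes did, and lines are the medians of the lists.

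Of 14 genes whose proteins are tied to ISG15 or USP18 in other ways, 3 were higher by limma, none was lower and 11 did not pass (median 0.16). Trim25, a ubiquitin ligase that can also act as an ISG15 ligase, rose from 5.98, 5.97 and 6.23 to 6.94, 6.99 and 7.27 (log2 fold change 1.01, standard error 0.12, adjusted p = 0.0207 from limma), and was 0.32 above the receptor-gene median in PBS mice. Stat2, which brings USP18 to the interferon receptor and is a subunit of the interferon-activated complex, rose from 8.17, 8.15 and 8.20 to 8.90, 8.90 and 8.77 (log2 fold change 0.69, adjusted p = 0.0141 from limma). Itgb2, the beta chain of the integrin LFA-1 that binds extracellular ISG15, rose from 6.52, 6.57 and 6.77 to 7.64, 7.42 and 7.42 (log2 fold change 0.87, adjusted p = 0.0207 from limma). For each of these 3 genes every LPS mouse was above every PBS mouse. Itgal, the alpha chain of LFA-1, had a difference of 0.31 that did not pass (limma, adjusted p = 0.276) and lay 0.17 below the receptor-gene median in PBS mice. Skp2, part of a ligase that marks USP18 for degradation, had a value of 0.37 and Ifnar2 of 0.32 (adjusted p = 0.271 and 0.276 from limma). The proteases Usp2, Usp5, Usp13, Usp14, Usp16 and Usp21, some of which react with ISG15 in vitro, had log2 fold changes from -0.27 to 0.18. Arih1 and Eif4e2, a ligase and a cap-binding protein linked to ISG15, had values of 0.04 and -0.10. Of the fits that leave out an array, the calls of Trim25, Stat2 and Itgb2 each held in 1, the fit lacking LPS replicate 3 (limma, adjusted p up to 0.123). Their log2 fold changes stayed at 0.91 to 1.09, 0.66 to 0.73 and 0.80 to 0.95 over these fits.

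Of 12 measured genes of type I interferon signalling, which is known to induce genes of this kind, 2 were higher by limma, none was lower and 10 did not pass. Besides Stat2 this was Irf7, which encodes a master regulator of interferon genes, with values of 5.36, 5.29 and 5.53 after vehicle and 8.17, 7.69 and 8.14 after LPS (log2 fold change 2.60, adjusted p = 0.00153 from limma). In PBS mice Irf7 lay 0.34 below the receptor-gene median. Irf9, the DNA-binding subunit of the complex with STAT2, had a log2 fold change of 0.92 (95% confidence interval 0.57 to 1.26) and just missed the threshold (adjusted p = 0.0555 from limma). Irf1 had a value of 0.38 (adjusted p = 0.166 from limma). The receptor chain Ifnar1 and the kinases Jak1 and Tyk2 had values of 0.08, 0.03 and 0.27, the feedback genes Socs1 and Socs3 of 0.10 and -0.14, and Irf3 of 0.05 (adjusted p from 0.388 to 0.888 from limma). Ifnb1, the ligand, lay 0.33 below the receptor-gene median in PBS mice and had a value of -0.02, which at this level is not informative.

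Set beside a general list of interferon-stimulated genes, the members above background took different places. Limma called 17 of its 33 measured genes higher, 16 did not pass and none fell, and the median log2 fold change was 0.88. Ifitm3, Ifit1, Oasl2, Rtp4, Lgals3bp and Gbp3, which encode antiviral and other interferon-induced proteins, had the smallest p, with log2 fold changes from 1.41 to 2.44. Usp18 exceeded 28 of the 33 genes and Herc6 16 of them. Ube2l6 exceeded 12. Uba7 and the cluster shared by Isg15 and Gm9706 are given no place in the list, since they lay below the receptor-gene median in PBS mice, as did Oas1a, Oas2, Oas3, Mx1 and Mx2 of the list. The list shares the response with the members and was chosen with these data known, so its count is a description. Its higher genes numbered 22 without LPS replicate 3 and from 10 to 13 when another array was dropped.

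The genes whose pattern over the 6 arrays was closest to each member were found by the root mean square difference in log2 values, after each gene's own mean was subtracted, among all genes named alone. Closest to Usp18 were Ifit3, at 0.11, Ifit1, at 0.15, and Ifi30, at 0.16. These are all known as interferon-inducible. They had log2 fold changes of 1.88, 1.69 and 1.86, and closeness by this measure requires a change of like size. Closest to Herc6 were Casp4, Fam111a and Slc7a11, at 0.05, 0.05 and 0.06, with log2 fold changes of 0.77, 0.78 and 0.76. Closest to Uba7 were Zfy2, at 0.03, Ctsz, at 0.04, and Ly6e, at 0.05, with log2 fold changes of 0.56, 0.59 and 0.59. Closest to Ube2l6 were Asf1b, at 0.05, and Epsti1 and Fcgr3, both at 0.08. Closest to the cluster shared by Isg15 and Gm9706 were Gm6642, at 0.10, and Ssh3 and Mir342, both at 0.13, and none of these last 3 passed the limma test (adjusted p from 0.695 to 0.901).

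Some markers of other cell types moved with the groups. Of 8 endothelial markers 6 were higher and 2 did not pass, and their summed linear level was 2228 to 2820 in PBS mice and 4533 to 5013 in LPS mice. Between 3 and 7 of the 8 passed with an array left out, and 1 with LPS replicates 1 and 2 both left out. Tek and Cldn5, a receptor and a tight junction protein of endothelium, rose by 1.04 and 0.98 on the log2 scale (limma, adjusted p = 0.00465 and 0.00456). Of 9 microglia and macrophage markers 2 were higher, Itgam and Ptprc, with log2 fold changes of 1.77 and 0.89 and a median of 0.41 over the list. With an array left out, 1 or 2 of them passed, and the summed level was 2616 to 2938 in PBS mice and 3517 to 4346 in LPS mice. Of 9 neutrophil markers 1 was higher, Csf3r (0.73), while the list ran from -0.36 to 0.73 with a median of 0.06. Of 4 blood monocyte markers 1 was higher, Fn1 (0.82), while the list ran from -0.29 to 0.82 with a median of 0.07. Csf3r passed in 1 and Fn1 in 2 of the 6 fits that leave out an array. In PBS mice 4 of the neutrophil markers, namely Mmp8, Ltf, Elane and Cxcr2, lay below the receptor-gene median, and the summed levels of that list were 439 to 514 in PBS and 518 to 525 in LPS mice. Of the monocyte list they were 1367 to 1448 and 1830 to 2046. Limma and an unadjusted p under 0.05 called none of 8 neuron markers, and their summed level overlapped between groups. Limma called none of 8 astrocyte, 5 oligodendrocyte, 8 T and NK cell and 4 B cell markers, with 1 astrocyte, 2 T and NK cell and 1 B cell marker higher and 2 oligodendrocyte markers lower at an unadjusted p under 0.05, beside the 6.24% and 7.24% of all genes named alone. In PBS mice 4 T and NK cell and 3 B cell markers lay below the receptor-gene median. The summed level of the oligodendrocyte markers was 13591 to 14982 in PBS and 12363 to 13193 in LPS mice. Summed levels of the astrocyte, T and NK cell and B cell lists overlapped between groups. A pair of clusters shared by the beta-globin genes of red blood cells were lower, by limma, at -1.66 (adjusted p = 0.0245) and -1.76 (adjusted p = 0.0403) on the log2 scale. The clusters shared by the alpha-globin genes had lower means after LPS but did not pass (limma, adjusted p = 0.221 and 0.246). The other globin clusters ran from -0.07 to 0.09 and did not pass either. Limma called none of 2 further red blood cell markers, with 1 lower at an unadjusted p under 0.05. The part of these cells in the increases of Usp18, Herc6 and Uba7 was not tested. Tbp served as the qPCR reference, and its cluster had mean log2 values of 10.46 ± 0.09 in PBS and 10.45 ± 0.17 in LPS mice (SD, n = 3 in each).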

How the data were processed

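The authors hybridized whole-brain RNA from 3 mice given LPS and 3 given vehicle to Mouse Gene 1.0 ST arrays, 1 per mouse. The deposited values are log2 expression values, which the authors made by RMA (background correction, normalization between arrays, summary per transcript cluster). The methods describe RMA adjusted for GC content in Partek and RMA 16 in GeneSpring, and the fold changes that the deposited values give are those of the first. Signal over background per probe was not analysed here, and no scanner files were used. All 35556 clusters entered the tests without a filter. The platform annotation gave 1 gene for 21789 clusters, several for 1621 and none for 12146, with symbols updated through gene identifiers to RefSeq (GRCm38.p6).

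The 2 groups were compared by a two-sided moderated test (limma 3.58.1, R 4.3.3). P-values were adjusted over all clusters by the Benjamini-Hochberg procedure, with a threshold of 0.05. The unpaired t test of the methods, which the authors ran on the RMA 16 values and which was run here on the deposited ones, is called the methods' t-test. For the values adjusted for GC content the paper used one-way ANOVA. Its list from that test has an entry labelled Herc5 with a fold change of 1.80, that of Herc6 here. No member is listed there under its own symbol. A gene outside the members was represented by its brightest cluster that names it alone. Exact permutation tests used scipy 1.17.1. Lists were described by counts and medians and were not tested as sets. The procedure was tested on simulated data. Their noise was drawn independently for each cluster and array, so that test does not cover the division among the LPS arrays. The members and lists were chosen with earlier results of these data known.

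Genes were named by rule: the members, Tbp, all genes of the smaller lists on interferon signalling, E1 enzymes, HERC ligases and proteins tied to ISG15 or USP18, up to 6 by p in the other pathway lists and up to 2 in the marker lists where they passed, and the 3 closest to each member. Nedd8, Sumo2, Ufm1, Urm1, Ubl5, Ube2g2 and Usp40 did not pass and were named as examples after their values were seen, as were genes of the lists below the receptor-gene median.

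The alternatives were the methods' t-test, eBayes with a trend or robust, quantile normalization, centring on array medians, dropping the dimmest 40% of clusters, a fit restricted to clusters naming 1 gene, an offset of 32, the replicate number as a block, each array left out, LPS replicates 1 and 2 both left out, an adjusted p under 0.01, and for lists the mean of a gene's clusters.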

Additional observations from a re-analysis of the deposited data

How the results depend on the processing

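No member reversed its direction except the cluster shared by Isg15 and Gm9706 (Isg15 below), whose log2 fold change was -0.33 with LPS replicates 1 and 2 both left out. The upregulated members kept their calls with a trend, with robust moderation, after quantile normalization, with an offset of 32 and with only clusters that name 1 gene tested, where the cluster of Isg15 is not included. Dropping the dimmest 40% of clusters removed Isg15 and Uba7 from the test. The log2 fold changes stayed the same under the methods' t-test, which called none of the members (Usp18 1.91, Herc6 0.85, Uba7 0.58), so that members called fell from 3 to 0. Uba7 also lost its call centred on array medians (0.49), at an adjusted p under 0.01 (0.58) and with LPS replicates 1 and 2 left out (0.59), where Herc6 lost it too (0.95) and 1 member was called. With each array left out in turn the log2 fold changes ran from 1.82 to 2.03 for Usp18, 0.80 to 0.91 for Herc6, 0.54 to 0.61 for Uba7, 0.40 to 0.65 for Ube2l6 and 0.08 to 0.50 for Isg15, and the members called numbered from 1 to 4, with 1 without any PBS replicate or LPS replicate 1, 2 without LPS replicate 2 and 4 without LPS replicate 3.

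The replicate numbers carry no stated pairing. Same-numbered PBS and LPS arrays had correlations of their deviations from the group means of 0.09, -0.05 and 0.10 over clusters. With 3 arrays per group such correlations cannot show whether same-numbered arrays were paired. LPS replicate 3 correlated best with PBS replicate 3, LPS replicates 1 and 2 both with PBS replicate 1. With the replicate block 1 member was called, and the log2 fold changes of Herc6 (0.85, adjusted p = 0.0589 from limma) and Uba7 (0.58, adjusted p = 0.112) did not pass. The block gave 76 clusters higher and 4 lower over all clusters, and higher genes numbered 1 among proteins tied to ISG15 or USP18, 1 in interferon signalling and 11 among interferon-stimulated genes.

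Over all clusters, 232 were higher and 22 lower. The methods' t-test gave 4 and 1, centring on array medians 141 and 10, LPS replicates 1 and 2 left out 71 and 12, and an adjusted p under 0.01 gave 97 and 0. Those lower were 13 after quantile normalization and 61 with only clusters that name 1 gene tested, where 1 E2 enzyme was lower. With each array left out they ran from 74 to 2640 higher and from 0 to 1152 lower, the highest without LPS replicate 3. Higher genes among proteins tied to ISG15 or USP18 numbered 0 under the methods' t-test, with LPS replicates 1 and 2 left out and at an adjusted p under 0.01, and 0 to 4 with each array left out, with 0 to 1 lower. In interferon signalling they numbered 0, 1 and 1 under those settings and 1 to 3 with each array left out. Among interferon-stimulated genes they numbered 0 under the methods' t-test, 10 with LPS replicates 1 and 2 left out and 10 to 22 with each array left out. With each array left out, E1 enzymes higher ran from 0 to 1, E2 enzymes lower from 0 to 2, modifiers lower from 0 to 2, and proteases higher and lower from 0 to 2. The mean of a gene's clusters in place of the brightest changed no list count by over 1.5 times.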
